A study of Saccharomyces cerevisiae with 18 samples.

Results

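COS genes encode related membrane proteins of budding yeast, and most lie near the ends of chromosomes. Described here are 10 of them, taken by systematic name from the 7036 features of the deposited counts: COS1 (YNL336W), COS4 (YFL062W), COS5 (YJR161C), COS6 (YGR295C), COS7 (YDL248W), COS8 (YHL048W), COS9 (YKL219W), COS10 (YNR075W), COS12 (YGL263W) and COS111 (YBR203W). The family was chosen on measured values, since COS12 was already known to differ between K467N and WT in these libraries. That difference is therefore given as a description. Of the 10 genes, 8 had enough counts to enter the test, in which 5660 genes were tested. COS4 and COS7 did not.

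Cos proteins sit in the membranes of endosomes and the vacuole. They are known for helping to sort membrane proteins into multivesicular bodies, where they supply ubiquitin in trans to cargo that carries none of its own, so that the cargo is degraded in the vacuole. Genes close to telomeres can be held down by silencing that depends on Sir proteins and on NAD, the cofactor of the deacetylase Sir2. The annotation used here (R64) states that COS111, a gene needed for resistance to the antifungal ciclopirox olamine, is not related to the subtelomeric family in spite of its name.

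The libraries came from 3 strains of the S288C background, with 6 poly(A) RNA libraries each, and every strain, WT included, carried Nup60 fused to GFP. Nup60 belongs to the basket on the nuclear face of the pore. WT had the lysine at residue 467 and the HIS3 gene of S. kluyveri as marker, K467N had asparagine at that residue with the same marker, and K467R had arginine with the HIS3MX6 cassette. In K467R the substitution and the marker cannot be told apart. Asparagine was used as a mimic of the acetylated lysine and arginine as a mimic of the deacetylated one, and the series asks what acetylation of this residue does to transcription. Cultures in YP with 2% glucose and adenine were grown at 25 °C from an OD of 0.1 to 0.6 to 0.7. The labels do not say whether libraries of a strain were separate cultures, nor how many clones a strain comprised, so p-values measure only the spread between these samples.

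Each library held 12395725 to 19093010 reads on genes. HTSeq does not assign reads with more than 1 alignment to a gene and enters them in a summary line. Of all counts of a library, summary lines included, that line made up 18.57 to 18.96% in WT, 18.31 to 19.14% in K467N and 18.34 to 19.62% in K467R. Whether such a read was entered once or once per alignment was not checked. As a check of the labels, NUP60 stood at 84.6 ± 6.5, 87.6 ± 3.19 and 89.1 ± 4.2 CPM (counts relative to the scaled depth of the library; SD, n = 6) in WT, K467N and K467R. HIS3 counts summed to 7468, 7394 and 1 in the same order. K467R thus also differed from WT and K467N in reads on the yeast's own HIS3 gene, which the genotype labels do not mention. That difference cannot be told apart from the substitution either. No pair of libraries agreed within sampling noise. K467R 1 and K467N 2 lay at opposite ends of the first principal component of all genes.

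Near-identical copies decide how far a COS gene can be counted at all, so the sequences are shown first. The stretch of 60 coding bases in which the 9 related members were most alike ran from base 360 to 419 in COS1, COS4, COS5, COS6, COS7 and COS8, counted from 1 at the A of the start codon. It began at base 444 in COS9, 339 in COS10 and 351 in COS12. Capitals mark a base that differs from the commonest base of the 9 genes at that place, and all sequences are RefSeq's, of the R64 assembly, read 5′ to 3′ on the coding strand.
COS1: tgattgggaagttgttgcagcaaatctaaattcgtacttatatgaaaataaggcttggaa
COS4: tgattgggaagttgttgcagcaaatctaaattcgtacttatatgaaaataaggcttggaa
COS5: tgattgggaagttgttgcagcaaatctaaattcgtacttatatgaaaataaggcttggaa
COS6: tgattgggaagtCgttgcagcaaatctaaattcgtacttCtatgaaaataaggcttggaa
COS7: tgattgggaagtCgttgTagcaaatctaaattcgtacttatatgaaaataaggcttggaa
COS8: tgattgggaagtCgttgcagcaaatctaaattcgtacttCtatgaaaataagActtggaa
COS9: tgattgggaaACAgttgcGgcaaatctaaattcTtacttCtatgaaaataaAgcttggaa
COS10: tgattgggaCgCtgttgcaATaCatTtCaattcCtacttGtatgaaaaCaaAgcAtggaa
COS12: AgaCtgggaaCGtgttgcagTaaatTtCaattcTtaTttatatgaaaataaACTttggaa
COS1, COS4 and COS5 were letter for letter the same here, so a read that lies wholly inside this stretch cannot be given to any 1 of them. COS6 and COS7 differed from the commonest base at 2 positions each, COS8 at 3 and COS9 at 7. COS10 and COS12 differed at 12 positions each.

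The stretch in which the 9 genes were least alike ran from base 706 to 765 in COS1, COS4, COS5 and COS7 and from base 703 to 762 in COS12. It is shown for the pairs that stay identical and for COS12.
COS1: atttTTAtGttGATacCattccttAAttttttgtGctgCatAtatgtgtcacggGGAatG
COS4: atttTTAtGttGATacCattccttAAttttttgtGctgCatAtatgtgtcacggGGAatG
COS5: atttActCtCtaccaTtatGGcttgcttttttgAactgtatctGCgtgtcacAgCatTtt
COS7: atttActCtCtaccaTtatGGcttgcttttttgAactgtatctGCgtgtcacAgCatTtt
COS12: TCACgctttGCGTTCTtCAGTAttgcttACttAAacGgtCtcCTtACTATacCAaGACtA
Even where the family diverged most, COS1 equalled COS4 and COS5 equalled COS7. COS12 differed from the commonest base at 35 of 60 positions, the most of the 9 genes. The mean identity over pairs of genes was 87.8% in the first stretch and 49.3% in the second.

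Over the whole coding sequence the closest relative of COS1 was COS3, with 96.6% identity, and that of COS4 was COS1, with 96.3%. COS5 and COS7 shared 95.6%. COS6 came within 90.9% of COS4, and COS8 within 86.6% of COS6. COS9 (75.4% with COS7), COS10 (62.4% with COS6) and COS12 (59.6% with COS6) stood farther out. COS111 had 43.4 to 46.1% identity with all the others. COS2 and COS3, family genes that are not among the 10, have identical coding sequences and were counted with 0 and 1 reads in all 18 libraries.

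**Figure D1:**
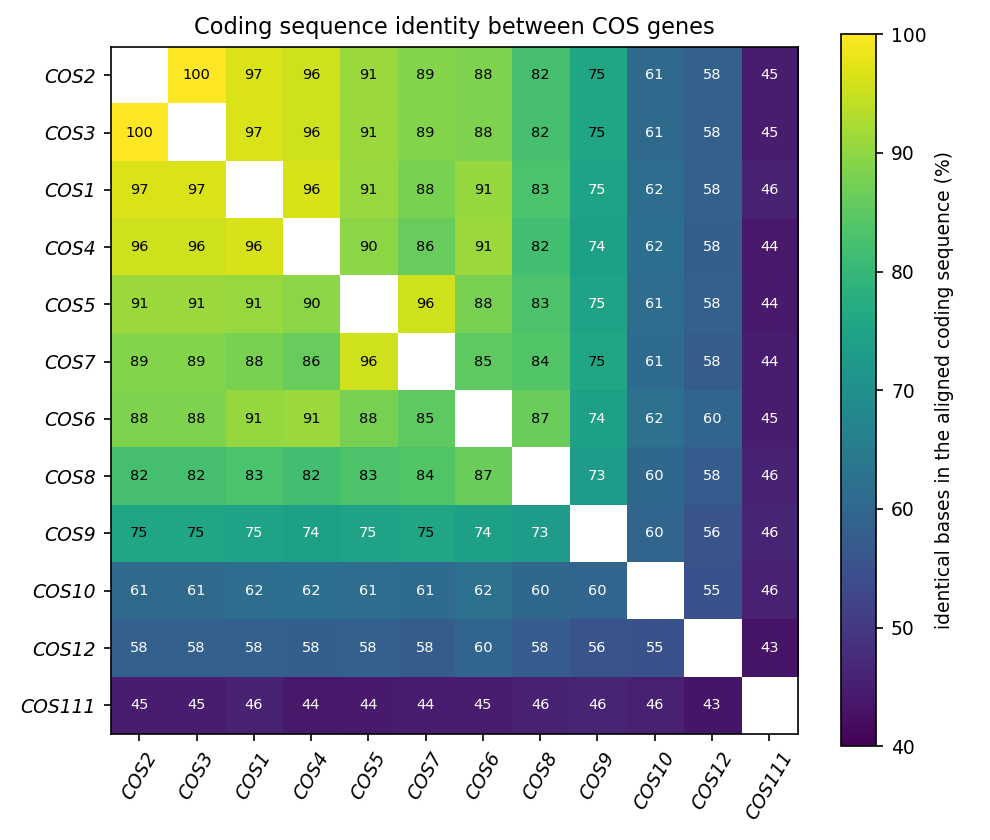
Percent identity of the aligned coding sequences of 12 COS genes, in R64, with each cell 1 pair of genes and brighter cells closer pairs. COS1, COS2, COS3 and COS4 form 1 block of close copies, COS5 and COS7 another, and COS111 is below 47% with every gene.

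The share of a gene's sequence that occurs once in the genome followed from this. Of all stretches of 50 coding bases, 100% were unique for COS10, COS12 and COS111, 99.1% for COS9 and 82.6% for COS8. The share was 61.7% for COS6, 33.4% for COS7, 28.9% for COS1, 27.7% for COS4 and 17% for COS5. With stretches of 100 bases the shares rose to 84.5% for COS6, 49.4% for COS1 and 42.4% for COS5. No source used here states the read length, so neither length can be called the right one. For COS1, COS4, COS5 and COS7, only a minority of the coding sequence can yield uniquely placed reads of 50 bases. The ranges of the share that HTSeq entered as several alignments overlapped between the strains.

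**Figure D2:**
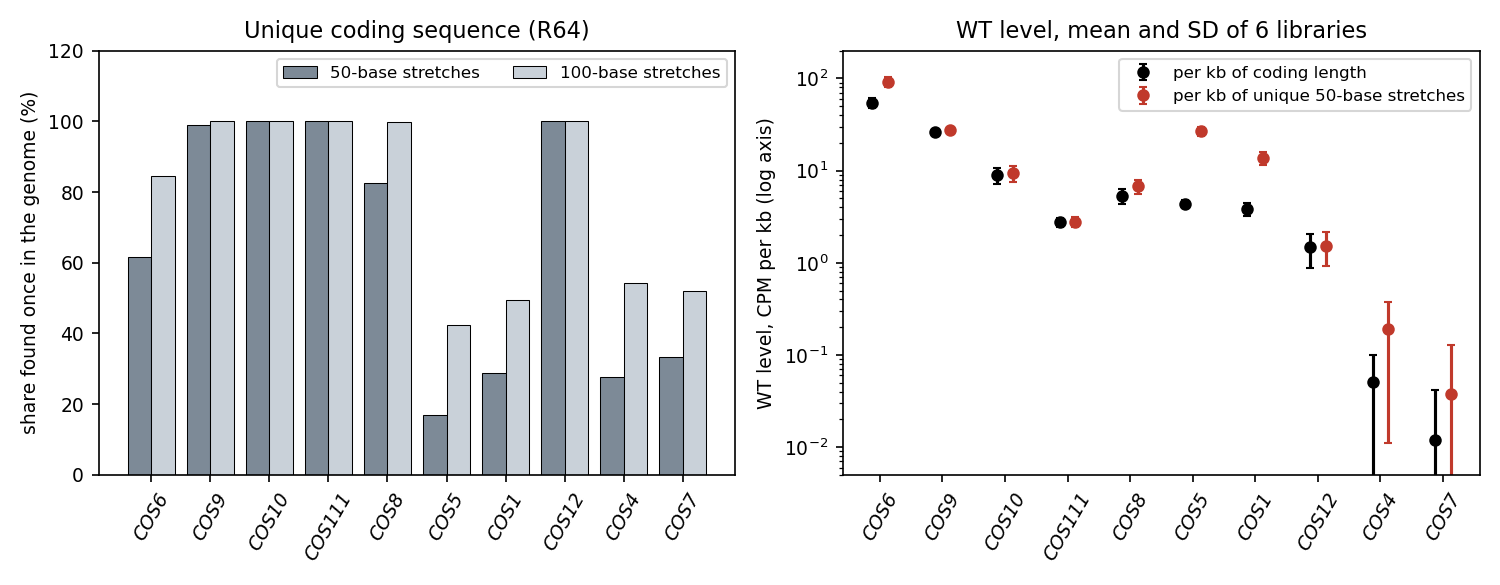
Left, percent of the 50-base and 100-base stretches of each coding sequence that occur once in the R64 genome; right, mean WT level in CPM per kb (log axis) per coding length and per unique 50-base stretches. COS5 and COS1, with 17 and 28.9% unique stretches, shift upward most among the 8 genes with more than 17 counts.

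Levels between genes are compared as CPM per kb of coding length. In WT, COS6 led with 54.4 CPM per kb, followed by COS9 with 26.3 and COS10 with 8.94. COS8 (5.35), COS5 (4.38), COS1 (3.8), COS111 (2.74) and COS12 (1.48) came next. COS4 had 0.051 and COS7 0.012, from 5 counts and 1 count in 6 libraries. The libraries of COS6, COS9 and COS10 did not overlap, nor did those of COS12 and COS4. The neighbours from COS10 down to COS12 overlapped in their ranges, so their order is not settled by 6 libraries. Counted per kb of unique 50-base stretches, COS6 rose to 92.1 and COS5 to 26.9, level with COS9 at 27.6, and COS1 to 13.7, above COS10 at 9.35. The place of COS5 and COS1 in the order thus depends on how the missing reads are treated, while COS6 stayed first and COS12 stayed last of the 8 tested genes.

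The place of COS12 in the order differed between strains. In K467N it took place 4 per kb of coding length, at 4.83 CPM per kb, with a range that overlapped COS8 at 4.53. In K467R it took place 6, at 3.32 CPM per kb, between COS5 at 3.65 and COS1 at 2.56, overlapping both. Per kb of unique 50-base stretches COS12 took place 7 in K467N (5.05) and in K467R (3.47), against place 8 in WT. COS6, COS9 and COS10 held the first 3 places in every strain per coding length, with libraries that did not overlap. Per unique 50-base stretches COS6 and COS9 were again first, but COS5 took place 3 in every strain, overlapping COS9, and COS10 took place 5.

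Summed over the 10 genes, the family had 130 ± 11.1 CPM in WT, 135 ± 10.2 in K467N and 120 ± 13.7 in K467R (SD, n = 6). The ranges were 116 to 143, 123 to 150 and 96.4 to 133, which overlap. COS6 and COS9 together supplied 68.6 to 74.9% of the family's counts, so the sum says little about the other genes. In bulk RNA, fewer cells that express a gene and less RNA per cell cannot be told apart.

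COS12 is the first annotated gene at the left end of chromosome VII. Its levels in WT were 0.662 CPM at the lowest, 1.67 at the median and 2.65 at the highest. In K467N the same values were 4.75, 5.13 and 7.68, and in K467R they were 1.99, 3.77 and 5.54. Every K467N library was above every WT library. In K467R, 5 of the 6 libraries were above every WT library, and K467R 1 fell inside the WT range. Behind these levels stood 8 to 39 counts per library in WT, 67 to 118 in K467N and 28 to 86 in K467R, which sum to 148, 513 and 326. The libraries of a strain spread more than counting alone would give, with a coefficient of variation of 40.2% in WT against 20.1% from counting.

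Fitted over all 18 libraries with edgeR's quasi-likelihood test, COS12 was 3.23-fold higher in K467N than in WT (95% interval 2.31 to 4.53), a log2 change of 1.69 ± 0.23 (SE). It was 1 of only 4 genes past the threshold (an adjusted p of 0.05) of 5660 tested, and this is the value on which the family was picked. In K467R it was 2.24-fold higher (1.56 to 3.2), a log2 change of 1.16 ± 0.25, with an edgeR adjusted p of 0.151 that misses the threshold. Without K467R 1, its lowest library in the strain, the same fit gave 1.29 and an adjusted p of 0.0187. DESeq2 on all libraries gave 1.17 and 0.00194, and both values passed the threshold. Limma-voom gave 1.19 and 0.235, and edgeR on only the 12 libraries compared gave 1.16 and 0.326, which did not pass. Of the 25 alternatives to the main fit, COS12 passed in 4 in K467R against WT. The comparisons of K467N and of K467R with WT use the same WT libraries, so they are not independent of each other. Between the mutants COS12 was higher in K467N by 0.53 ± 0.21 (95% interval 0.10 to 0.96; edgeR adjusted p 0.408), and the ranges overlapped. With 2 surrogate variables that difference was 0.22.

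**Figure D3:**
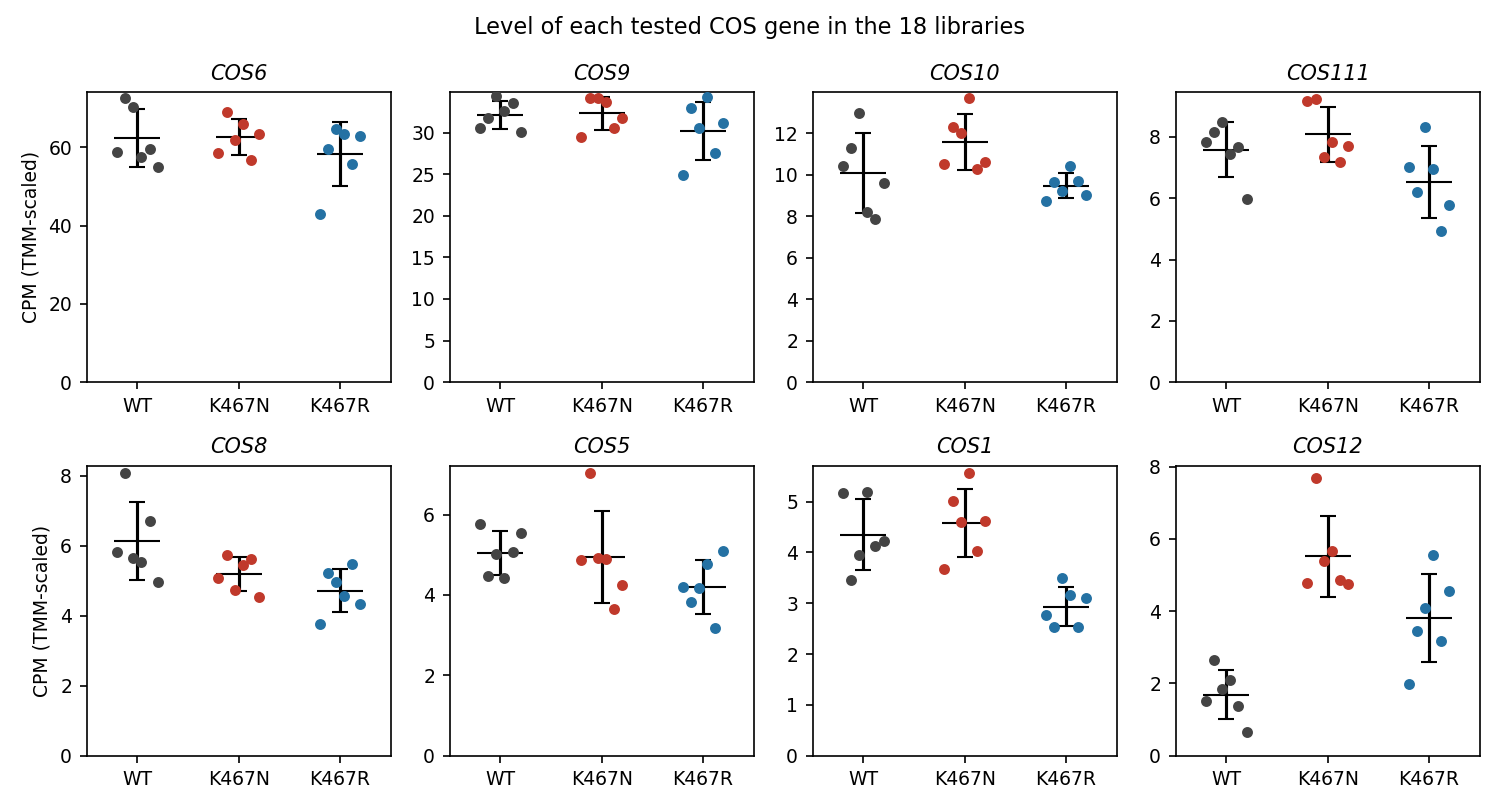
Level in CPM of the 8 tested COS genes in each of the 18 libraries (points), with the mean and SD of 6 libraries per strain. For COS12 the K467N points lie clear above the WT points, and COS1 is lower in every K467R library than in any K467N library.

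COS1, the second annotated gene from the left end of chromosome XIV, had the lowest fitted difference from WT among the 8 genes in K467R, without passing the test. Its lowest, median and highest levels were 3.46, 4.17 and 5.19 CPM in WT and 3.67, 4.6 and 5.56 in K467N. In K467R they were 2.53, 2.94 and 3.49. All 6 K467R libraries lay below all 6 K467N libraries, and 5 of 6 lay below every WT library. The fitted difference was 0.64 ± 0.13 between K467N and K467R (edgeR adjusted p 0.187) and -0.57 ± 0.13 between K467R and WT (edgeR adjusted p 0.229). Neither passed, and none of the alternative settings made them pass, with adjusted p between 0.0634 and 0.999 for the first and between 0.0968 and 0.75 for the second. Between K467N and WT, COS1 differed by 0.07 ± 0.12.

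COS8, with 3 annotated genes between it and the left end of chromosome VIII, had levels of 4.97, 5.73 and 8.08 CPM (lowest, median, highest) in WT. In K467N they were 4.53, 5.26 and 5.73, and in K467R 3.76, 4.77 and 5.48. The strains overlapped, with 3 K467R libraries and 2 K467N libraries below every WT library. The fitted differences from WT were -0.38 ± 0.12 in K467R (edgeR adjusted p 0.747) and -0.24 ± 0.11 in K467N (edgeR adjusted p 0.999).

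COS6, the member with the most counts (606 to 1190 per library), ranged from 55 to 72.7 CPM in WT, 56.9 to 69 in K467N and 43 to 64.8 in K467R. The medians were 59.2, 62.7 and 61.3 CPM. COS9 ranged from 30.1 to 34.4, 29.5 to 34.1 and 24.9 to 34.3 CPM in the same order, with medians of 32.2, 32.8 and 30.8. Both genes overlapped between all strains, and their fitted differences lay between -0.10 and 0.10 on the log2 scale in the 3 comparisons, with standard errors of 0.07 to 0.09. The 43 and the 24.9 both belong to K467R 1, which lay at 1 end of the principal component.

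COS10 had medians of 9.98 CPM in WT, 11.3 in K467N and 9.43 in K467R, within ranges of 7.88 to 13, 10.3 to 13.7 and 8.73 to 10.4. COS5 had medians of 5.04, 4.88 and 4.18 CPM, within 4.42 to 5.77, 3.65 to 7.03 and 3.17 to 5.1. The strains overlapped for both genes. COS111, the only member away from a chromosome end, with 102 annotated genes between it and the right end of chromosome II, had medians of 7.76, 7.78 and 6.58 CPM, within 5.96 to 8.49, 7.17 to 9.25 and 4.92 to 8.33. Its differences of 0.09 ± 0.11 in K467N and -0.21 ± 0.11 in K467R against WT lay inside the range of the 7 tested members at chromosome ends. With 1 gene of this kind, members at ends and away from them cannot be tested against each other.

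COS4 and COS7 were near the floor. COS4 had 0 to 2 counts per library, with sums of 5, 6 and 6 in WT, K467N and K467R. COS7 had 1 count in all 18 libraries, in WT 6. COS4's coding sequence is 27.7% and COS7's 33.4% unique at 50 bases, and that of COS1, which gathered 1058 counts, is 28.9%. Why COS4 and COS7 had so few counts was not tested. A difference between strains was not detectable in either gene at this depth.

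Counted over the family, 1 of the 8 tested genes (COS12, higher) passed in K467N against WT, where 0.0707% of all tested genes did. At an unadjusted p under 0.05 there were 2 (COS12 and COS8), beside 1.15% of all genes. The libraries of the strains did not overlap in 1 (COS12), beside 0.124% of all genes. The median difference of the 8 genes was 0.04, or 0.01 without COS12, and the median of all tested genes was 0.00. Nothing is read from these shares, since this comparison picked the family.

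In K467R against WT, 0 of the 8 passed with edgeR, beside 0.0707% of all genes. With limma-voom 0 passed, where 3 of all 5660 genes did. DESeq2, run without the filter, passed 1 of 10 members (COS12), where 6 of all 6702 genes passed. At an unadjusted edgeR p under 0.05 there were 3 of the 8 (COS12 higher, COS1 and COS8 lower), where 5.67% of all genes were. None of the 8 had libraries that failed to overlap, where 0.283% of all genes did. The median was -0.15, against -0.01 for all genes, and 7 of the 8 were below 0, where 46.9% of all genes were above 0. In K467N against K467R, 0 passed with edgeR, DESeq2 or limma-voom (0.0177% of all genes with edgeR). There 4 had an unadjusted p under 0.05 (COS1, COS10, COS12 and COS111), beside 11.2% of all genes. With 2 surrogate variables that count of COS genes was 1, and without K467R 1 and K467N 2 it was 3. Over all genes the 635 behind the 11.2% became 116 without both libraries, 273 without K467R 1 alone, 233 without K467N 2 alone and 1215 without K467N 5. Leaving out any other K467N or K467R library gave 320 to 1202. In the fit of all libraries 1 (COS1) did not overlap, beside 0.283%. All 8 were above 0, where 52.5% of all genes were, with a median of 0.26 against 0.01 for all genes. Each pair of comparisons shares the libraries of 1 strain, and the genes share the libraries, so these signs are not 8 separate observations.

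**Figure D4:**
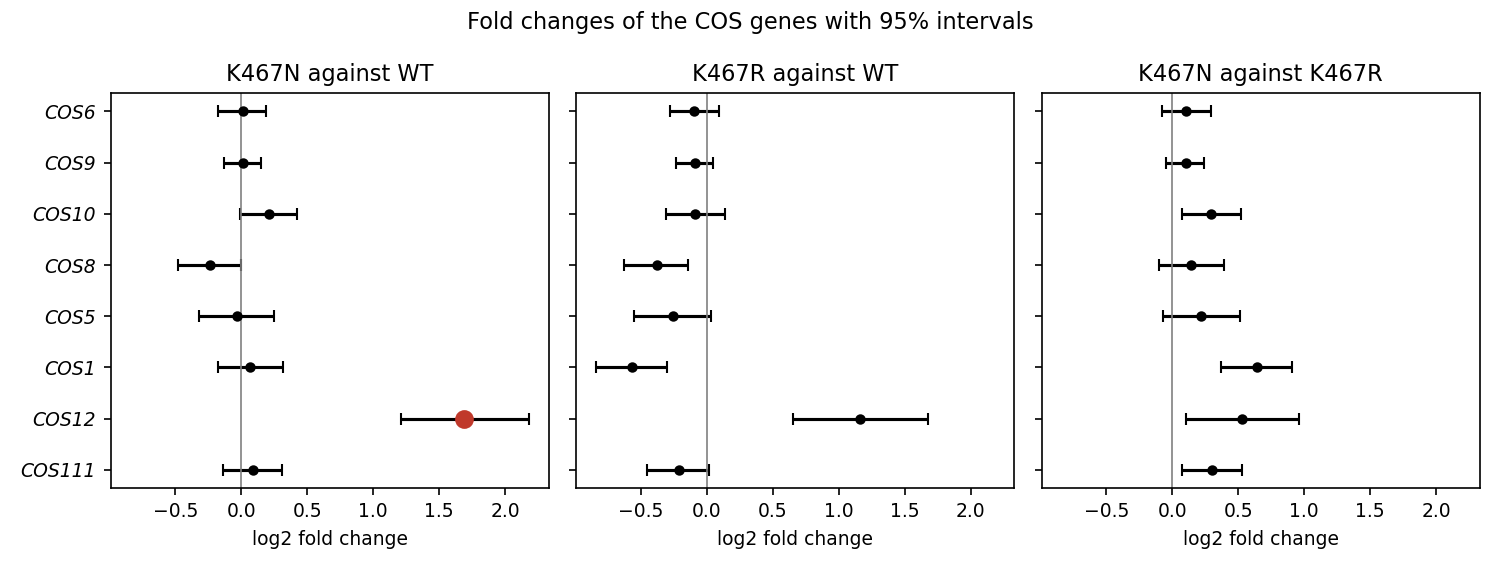
Log2 fold change of the 8 tested COS genes with 95% intervals in the 3 comparisons, with genes that pass an adjusted p of 0.05 in red. COS12 in K467N against WT, at 1.69, is the only red point. All 8 points lie above 0 in K467N against K467R, as do 52.5% of all tested genes.

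The precision sets what could be seen. For the 1083 tested genes between 1 and 20 CPM, which include all tested members but COS6 and COS9, the 95% interval reached 0.23 to 0.24 to either side at the median. Differences under about that size in COS1, COS5, COS8, COS10 or COS111 are within the error of these libraries. Single members can have wider intervals: -0.32 to 0.25 for COS5 in K467N against WT and 0.65 to 1.68 for COS12 in K467R against WT. Larger differences also missed the edgeR threshold over all genes, such as -0.57 for COS1 and 1.16 for COS12 in K467R against WT.

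Some libraries held the highest or lowest level of their strain in several COS genes. How often they did so over all genes was not counted. K467N 2 and K467R 1 also lay at opposite ends of the first principal component of all genes. K467N 2 held the highest level of its strain in 5 of the 8 genes, COS12 among them. K467R 1 held the lowest in 5, and WT 6 held the lowest in 5, again with COS12 among them in both. Across the 18 libraries, the log2 levels of the 28 pairs of genes had a median Pearson correlation of 0.37, between -0.19 and 0.78. COS6 and COS9 were the pair at 0.78, below the 0.84 of the 100th gene most like COS6, so that value is not particular to the family. The 7 pairs with COS12 had a median of 0.23, and the 21 pairs without it one of 0.40. These are descriptions of 18 shared libraries.

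The genes beside the members were examined next. The nearest tested genes on either side that are not COS genes came to 12, among them VEL1, which encodes a protein induced by zinc shortage, as the nearest to COS12, MAL11, a maltose transporter, near COS6, and the siderophore transporter ARN2 near COS8. With edgeR 0 of the 12 passed in any comparison, and DESeq2 called none. At an unadjusted p under 0.05 there were 0 in K467N against WT, 1 in K467R against WT and 1 between the mutants. The shares of all genes were 1.15, 5.67 and 11.2%, so these counts are no result about the neighbours. Their median difference was 0.01 in each comparison. VEL1 differed from WT by 0.23 ± 0.25 in K467N and 0.02 ± 0.26 in K467R.

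Between COS12 and VEL1 lie 5 genes with too few counts to test, and they were looked at after the values of COS12 were known. YGL262W, the first gene inward of COS12, had 2 counts over the 6 WT libraries, 21 in K467N and 16 in K467R. Its summed counts, scaled for depth, stood at a ratio to WT of 9.83 in K467N (95% counting interval 2.4 to 86.5). In K467R the ratio was 8.18 (1.92 to 73.3). PAU11, of the seripauperin family of cell wall genes, had 12, 22 and 13 counts, with ratios of 1.72 (0.813 to 3.8) and 1.11 (0.466 to 2.66). YGL260W had none. YPS5, which resembles the GPI-anchored aspartic proteases, had 20, 44 and 37, with ratios of 2.06 (1.19 to 3.69) and 1.89 (1.07 to 3.44). YGL258W-A had 16, 23 and 23, with 1.35 (0.681 to 2.72) and 1.47 (0.744 to 2.98). For COS12 itself the same ratios were 3.24 (2.7 to 3.92) and 2.25 (1.85 to 2.75), and for VEL1 1.17 (0.856 to 1.6) and 1.01 (0.725 to 1.4). The intervals cover counting error only and not the spread between libraries. They treat each read as a separate molecule, and the reads carry no molecular identifiers, so the intervals may be too narrow. In an edgeR fit without the filter on low counts, YGL262W had adjusted p of 0.619 and 0.754 and YPS5 1 and 0.754, so none passed.

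**Figure D5:**
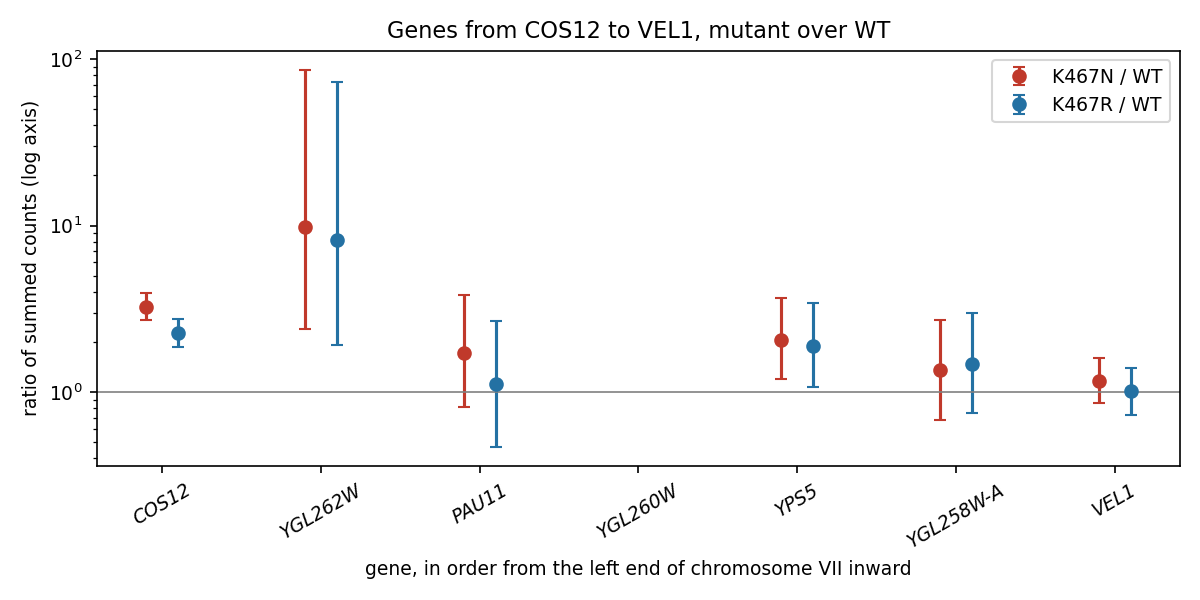
Ratio of summed counts, scaled for depth, in K467N and K467R to WT (log axis) for the genes from COS12 inward to VEL1 at the left end of chromosome VII, with 95% counting intervals; YGL260W had no counts. COS12 and YGL262W lie highest, and the intervals of PAU11, YGL258W-A and VEL1 include 1.

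Genes of the pathways that COS proteins and subtelomeric genes are known for were read from the same fit. Of 27 genes for sorting membrane proteins into multivesicular bodies (the ESCRT complexes, the ubiquitin ligase Rsp5 and its adaptors), 0 passed in any comparison, and 0, 2 and 1 had an unadjusted p under 0.05 in K467N against WT, K467R against WT and K467N against K467R. The shares of all genes under that p were 1.15, 5.67 and 11.2%, so the list's counts are near or below them. The genes of smallest p in K467R against WT were examples that did not pass: the ligase gene RSP5 differed by -0.12 ± 0.05 and SNF7, the main subunit of the ESCRT-III filament, by 0.16 ± 0.07. The medians of the list were 0.01, 0.02 and 0.00 in the 3 comparisons.

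Of 20 genes for silencing near telomeres, 0 passed, with 0, 1 and 0 at an unadjusted p under 0.05 (again near or below the shares of all genes) and medians of 0.02, 0.01 and 0.03. SIR2, the NAD-dependent histone deacetylase, differed by -0.09 ± 0.04 in K467N and -0.13 ± 0.04 in K467R (edgeR adjusted p 0.747 in K467R). RIF2, a telomere-binding protein, differed by -0.24 ± 0.12 in K467R. Of 14 genes for NAD synthesis and salvage 0 passed and 0 had an unadjusted p under 0.05 in any comparison, with medians of -0.02, -0.01 and -0.00. Of the 10 DUP240 genes, the smaller relatives of the COS family, 9 were tested, 0 passed and 0 had an unadjusted p under 0.05, with medians of 0.03, -0.01 and -0.02. For the NAD and DUP240 lists too, the shares of all genes under that p were 1.15, 5.67 and 11.2%. DESeq2 called no gene of these lists in any comparison.

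The genes whose log2 levels over the 18 libraries were most like those of COS12 were RDS1 (Pearson r = 0.90), a zinc-cluster regulator, AAD3 (0.86), a putative aryl-alcohol dehydrogenase, and ADH7 (0.80), an alcohol dehydrogenase. RDS1, AAD3 and ADH7 lie next to each other at the right end of chromosome III. TTI2 (0.79), of the complex that stabilises PIKK kinases, and RTG3 (0.73), a regulator of the retrograde response, came next, and the 100th gene had 0.53. With the mean of each strain taken off, the values were 0.61 for RDS1, 0.40 for AAD3, 0.20 for ADH7, 0.74 for TTI2 and 0.58 for RTG3. ADH7 had a low level, with a WT mean of 0.586 CPM. By rank correlation RDS1 (0.91) and AAD3 (0.88) again led, and the other 3 places went to other genes. For COS6 the most alike were EUG1 (0.94), GPI17, KTR7, LHS1 and MPD1 (0.91), where EUG1 and MPD1 encode protein disulfide isomerases and LHS1 an ER chaperone. There the 100th gene still had 0.84, and removing the strain means left 0.94 for EUG1. Only KTR7 of these genes stayed among the first 5 for COS6 by rank correlation. All are correlations over 18 shared libraries, chosen for their size.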

How the data were processed

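The authors deposited raw counts, 1 count per gene and library, not normalised, for which HTSeq 0.6.1p1, STAR 2.5.3a and bcl2fastq 2.20.0.422 are named, per the submitters' processing notes. A stranded poly(A) kit was used on 600 ng of RNA with 12 PCR cycles, per the labels' protocols. Not given in the sources used here: genome build, annotation and strand setting. Without the strand setting, reads of overlapping antisense genes cannot be told apart. The HTSeq summary lines stayed out of library sizes and tests. Of all counts of a library, summary lines included, the line for several alignments made up 18.31 to 19.62%. The line for ambiguous reads made up 0.305 to 0.3495%.

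Tests used edgeR 4.0.16 (R 4.3.3): filterByExpr, TMM, and 1 robust quasi-likelihood fit of all 18 libraries with strain as the only term. Two-sided p-values were Benjamini-Hochberg adjusted over 5660 genes, with 0.05 as threshold. CPM values are scaled by TMM. Alternatives were DESeq2 size factors, no filter, DESeq2 1.42.0, limma-voom (limma 3.58.1), only the 12 libraries compared, 2 surrogate variables (sva 3.50.0), leaving out K467R 1 and K467N 2 together, and leaving out each library in turn. Names, gene order and coding sequences came from R64, which matched 5956 of 7036 features by systematic name. Coding sequences were aligned with MAFFT 7.526. Correlations used log2 CPM with a prior count of 2. A member within 12 annotated genes of an end counts as at the end.

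The members, gene lists and tests were chosen with earlier results of these data known. The genes named are NUP60, HIS3, the 10 members, their nearest tested neighbours, up to 2 genes of smallest p per list and comparison, and the 5 genes most like COS12 and COS6, of which the text prints examples. Untested genes near members were added after seeing the data.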

Additional observations from a re-analysis of the deposited data

Results flagged for a closer look

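The COS12 level of K467N 2, at 7.68 CPM, stood apart from the other 5 libraries of its strain, the nearest of which was at 5.67. Its gap was 0.687 of the whole range, above Dixon's 95% critical value for 6 samples. Among 24 groups of 6 libraries checked (8 genes in 3 strains) this was the only one, and chance alone marks about 1 group in 20. Without K467N 2, the log2 change of COS12 in K467N against WT was 1.58, against 1.69 with it.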

How the results depend on the processing

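In K467N against WT the log2 change of COS12, on which the family was picked, was 1.55 to 1.86 over the 25 alternatives; they refit the same libraries and add no independent support. In K467R against WT it was higher under all 25, by 1.02 to 1.36, and passed in 4 of them, so the count of COS genes that passed moved from 0 to 1 with DESeq2, with 2 surrogate variables and with K467R 1 and K467N 2 both left out. Leaving out each library in turn gave 0 to 1 such genes, the 1 being COS12 without K467R 1. Its adjusted p over the 25 alternatives ran from 1.13e-06 to 0.484, and the cause was not tested. Over all genes, 2 surrogate variables raised the count that passed in that comparison from 4 to 8. Of the 24 differences of the 8 genes, 20 kept their sign in every alternative; COS5, COS6 and COS9 in K467N against WT and COS6 in K467N against K467R, all near 0, did not. Leaving out each library in turn moved the count of all genes at an unadjusted p under 0.05 between 39 and 117 in K467N against WT and between 186 and 551 in K467R against WT, and that of COS genes between 1 and 3 and between 3 and 4. Rank correlation shared 2 of the 5 genes most like COS12, and only KTR7 of the 5 most like COS6. No paired analysis was possible because the labels give no replicate numbers, and the numbers used here follow accession order. Low counts limit COS4 and COS7, and the unknown read length limits the levels of COS1 and COS5.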

Other observations

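Of the genes too low to test near COS4, at the left end of chromosome VI, 1 passed in a fit without the filter on low counts. It was named after the values of 25 untested genes near members were seen. In that fit 5 of all 6703 genes passed in K467N against WT, 1 of them lower. YFL065C had 53 counts over the 6 WT libraries, 8 in K467N and 34 in K467R, and that edgeR fit gave a log2 change of -2.70 in K467N against WT (adjusted p 0.00425). Its neighbour YFL066C, with 41, 16 and 32 counts, did not pass in that fit (adjusted p 1 in K467N against WT), nor did DDI3, on the other side of COS4, with 3, 7 and 2 counts (edgeR adjusted p 1). YFL064C, between COS4 and YFL065C, had 16, 7 and 15 counts and did not pass in that fit either. COS4 itself had 5, 6 and 6 counts.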
